A study of Caenorhabditis elegans with 2 samples.

Results

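Intronic PHA-4 peaks on the autosomes of Caenorhabditis elegans were 901 regions, out of 6171 autosomal peaks and 7847 in the whole genome. They were taken from the deposited optimal peak list on build ce11, by position and not by height. A peak belonged here when its summit lay inside a protein-coding gene, in no exon of any gene, and outside the promoter window of every protein-coding transcript. In the Ensembl gene models that window starts 1000 bp before a transcript's 5' end and stops 200 bp past it. The members made up 14.6% of autosomal peaks (95% Wilson interval 13.7 to 15.5). Autosomal promoter windows held 3569 peaks, sequence outside genes and windows 1349, exons 343 and genes of other types 9. The label was checked against the gene models. For 3 members the summit lay in no intron of a single transcript, and for 8 it lay inside a pair of host genes. The introns had a median length of 2690 bp. A further 583 autosomal summits lay in introns but inside a promoter window. They are not members, and their median signal was 79.6.

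The peaks came from ChIP-seq of whole L3 larvae of mixed sex in 2 biological replicates of 1 group. The strain was OP37, genotype unc-119(ed3) III; wgIs37, where wgIs37 is an insertion targeting pha-4 that adds an eGFP-tagged copy. Both replicates share this genotype and the same control file, so there was no second condition to compare, and the labels give the antibody target once as pha-4 and once as eGFP-pha-4. The larvae were not dissected, so a peak is an average over tissues. Each peak has a signal, the authors' height, whose scale is not stated. The depth of sequencing is unknown, so intervals below cover the counting of peaks only.

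PHA-4 is the worm's FoxA protein, a forkhead transcription factor that makes pharyngeal cells what they are and has further roles in the gut. FoxA proteins can bind their sites in compact chromatin and open it for other factors. Introns hold enhancers and the start sites of shorter transcripts, and long first introns of worm genes are known to carry such elements. A peak in an intron marks where the tagged protein was crosslinked, and does not show which gene it acts on.

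The sequences below are those of the highest peaks, 1 per host gene and a further one for fkh-7, because they show the words counted later and how much the top peaks differ in sequence. Each is the 101 bases centred on the summit, read from the RefSeq genome of build WBcel235, the same assembly as ce11, on the strand of the host gene, 5′ to 3′. Peaks on chromosomes II to V were eligible for printing. Capitals mark a FoxA core word, which is TATTTAC or TGTTTAC or TATTTGC or TGTTTGC on either strand, and a GA repeat, which is GAGAGA on either strand. A match is a description of the letters and not a shown binding site.
Y111B2A.12, chrIII:12612607-12612707, plus strand: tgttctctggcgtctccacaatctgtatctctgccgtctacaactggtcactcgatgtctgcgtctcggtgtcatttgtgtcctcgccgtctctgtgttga
fkh-7, chrIV:5604619-5604719, plus strand: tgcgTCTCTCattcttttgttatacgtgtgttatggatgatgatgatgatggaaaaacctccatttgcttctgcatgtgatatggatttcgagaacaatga
fkh-7 second peak, chrIV:5603485-5603585, plus strand: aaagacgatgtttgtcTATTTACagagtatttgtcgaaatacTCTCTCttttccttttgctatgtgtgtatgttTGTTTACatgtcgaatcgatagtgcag
sea-2, chrII:3958813-3958913, plus strand: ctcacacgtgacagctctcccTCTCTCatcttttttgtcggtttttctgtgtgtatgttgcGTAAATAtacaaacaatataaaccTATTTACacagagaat
nhr-19, chrII:9603578-9603678, minus strand: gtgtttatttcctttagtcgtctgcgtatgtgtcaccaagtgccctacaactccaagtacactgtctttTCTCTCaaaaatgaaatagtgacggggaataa
epg-9, chrIV:2602118-2602218, plus strand: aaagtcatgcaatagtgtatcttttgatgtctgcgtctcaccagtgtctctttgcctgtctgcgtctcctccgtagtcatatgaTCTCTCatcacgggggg
hlh-30, chrIV:4024318-4024418, minus strand: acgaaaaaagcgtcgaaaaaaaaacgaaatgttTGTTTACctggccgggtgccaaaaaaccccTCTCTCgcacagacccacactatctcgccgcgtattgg
pqn-41, chrIII:1925278-1925378, plus strand: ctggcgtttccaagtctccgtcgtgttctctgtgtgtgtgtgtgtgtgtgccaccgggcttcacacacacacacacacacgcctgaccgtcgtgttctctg
ccch-1, chrV:11529666-11529766, plus strand: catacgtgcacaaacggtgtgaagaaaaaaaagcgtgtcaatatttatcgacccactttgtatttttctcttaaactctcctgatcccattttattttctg

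The printed peaks shared no single word. Both words stood in the second fkh-7 window, the sea-2 window and the hlh-30 window, and the first 2 of these held 2 FoxA cores each. The first fkh-7 window and those of nhr-19 and epg-9 held a GA repeat alone. The windows of Y111B2A.12, pqn-41 and ccch-1 held neither word. A and T made up 42.6% of the pqn-41 window and 65.3% of the second fkh-7 window.

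In a list made from peaks that recur between replicates, the highest intronic peaks were high in both. To compare them, signals of a replicate were scaled to a median of 1 over the optimal peaks matched in it, and the scaled value is called relative signal. The peak in intron 4 of the protein-coding gene Y111B2A.12 (chrIII:12612433-12612887) had a signal of 764 and ranked 5 in the whole optimal list. Its relative signal was 10.8 in replicate 1 and 7.91 in replicate 2, or 9.37 ± 2.07 (SD, n = 2). The highest peak of fkh-7, a forkhead gene like pha-4 itself, lay 19985 bp from the gene's first 5' end and had 7.90 in replicate 1 and 6.94 in replicate 2. The next fkh-7 peaks had 6.35 and 7.14 in replicate 1 and 5.59 and 4.90 in replicate 2. Each of these stood far above the replicate medians of 1.

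The peak of sea-2, a zinc-finger gene named as a signal element of sex determination on the autosomes, had 5.48 in replicate 1 and 5.38 in replicate 2. That of nhr-19, a nuclear hormone receptor gene, had 4.80 and 5.35 in the same order of replicates. The peak of daf-16, the FoxO factor of insulin signalling, had 3.96 in replicate 1 and 4.44 in replicate 2. The peak of hlh-30, the worm TFEB factor of autophagy and lysosomes, had 5.05 in replicate 1 and 3.68 in replicate 2. For epg-9, an autophagy gene, the values were 5.27 in replicate 1 and 3.57 in replicate 2. For ccch-1, named for its CCCH zinc fingers, they were 4.18 in replicate 1 and 4.17 in replicate 2. The remaining hosts of the 20 highest members were tres-1, pqn-41, osgn-1, mnk-1, vhp-1, nhr-34 and pyk-1, at signals of 293 to 408 for their highest peaks. mnk-1 encodes a kinase of the MNK family, vhp-1 a MAP kinase phosphatase and pyk-1 a pyruvate kinase. Over the 20 highest members, the lowest ranks by signal in the replicates' own lists of 30000 regions were 171 in replicate 1 and 357 in replicate 2.

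**Figure D1:**
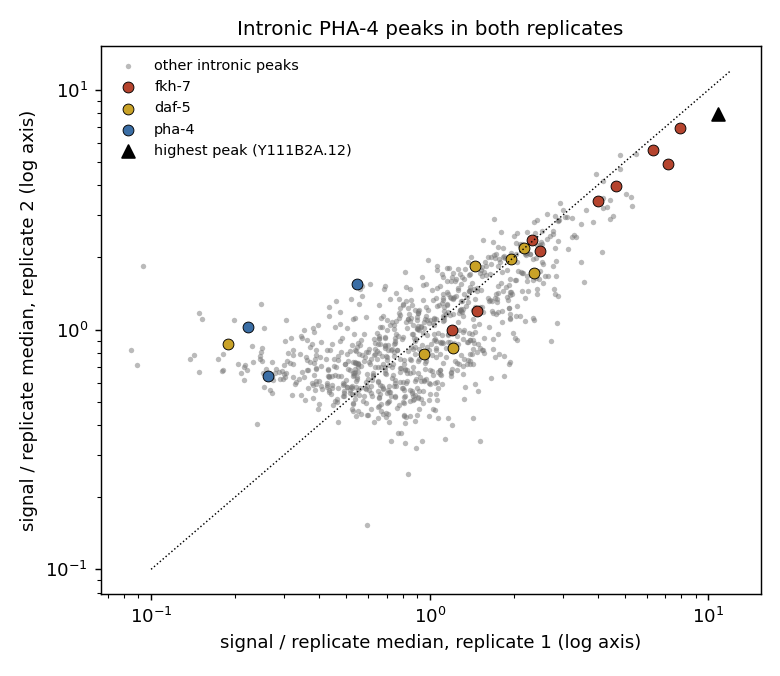
Relative signal (signal scaled to a median of 1 over the optimal peaks matched in the replicate) of each intronic peak in replicate 1 (x axis, log) and replicate 2 (y axis, log); each point is 1 peak and the dotted line marks equal values. The fkh-7 peaks lie near the line, with 7.90 in replicate 1 and 6.94 in replicate 2 for the highest, while the 3 pha-4 peaks lie above it.

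As a class, intronic peaks were lower than promoter peaks in both replicates. The median signal was 75.0 for members (range 41.5 to 764), against 94.3 for promoter peaks, 79.4 for peaks outside genes and 74.3 for exonic peaks. The ratio of the intronic to the promoter median was 0.795 in the optimal list, 0.819 in replicate 1 and 0.771 in replicate 2. Signals at or above the median of the whole list, 84.7, were found for 43.0% of members (Wilson 39.8 to 46.2), against 57.3% of promoter peaks (55.6 to 58.9), 46.3% of peaks outside genes (43.6 to 48.9) and a background of 51.8% of all autosomal peaks. At the top, 2 of the 18 autosomal peaks among the 20 highest were members, 21 of 203 among the 250 highest and 78 of 811 among the 1000 highest. Each of these shares is below the 14.6% of the whole list, as counts within 1 list and without a test.

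Replicate agreement was like that of the other classes. Members with a summit within 200 bp in both replicate lists made up 98.2%, against a background of 97.9% of all autosomal peaks. The optimal list keeps peaks that recur between the replicates, so high shares of this kind were largely set by that choice. The unmatched members were 9 in replicate 1 and 7 in replicate 2. The median coefficient of variation between replicates was 21.3% for members, 18.0% for promoter peaks and 22.3% for exonic peaks. Relative signal was over 2-fold apart between replicates for 133 members. The same count over all autosomal peaks was not made, so this number cannot be set beside other classes. Among them were the 3 intronic peaks of pha-4, with 0.55, 0.22 and 0.26 in replicate 1 and 1.54, 1.03 and 0.64 in replicate 2. All 3 were lower in replicate 1. The strain carries extra pha-4 sequence through its insertion, and the part of those copies in the pha-4 peaks was not tested. A single low peak lay in unc-119, the gene mutated in the strain, with 0.37 in replicate 1 and 0.68 in replicate 2.

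Members near the edge of the promoter window were low. The 65 members within 100 bp of a window had a median signal of 63.5, against 74.3 for the 53 intronic summits inside a window and within 100 bp of its edge.

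Many peaks shared a host gene. The members lay in 565 host genes, or 3.81% of the 14843 autosomal protein-coding genes with any intronic sequence that the rule allows, called eligible sequence below. The number of peaks limits this share. Hosts were 0.425% of genes with up to 500 bp of eligible sequence and 23.1% of those with over 5000 bp. Sharing of genes among all autosomal peaks was not counted. A single member was found in 401 hosts, 78 held 2, 36 held 3 and 50 held 4 or more. Hosts with at least 2 members held 55.5% of all members (Wilson 52.2 to 58.7). Of 699 introns with a member, 118 held more than 1. Neighbouring peaks share sequence and chromatin and are not independent, and 12 members overlapped another member.

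fkh-7 had the most, with 9 intronic peaks, 7 of them in its first intron of 16465 bp. Their signals ran from 89.3 to 633, and 5 of them exceeded the gene's highest promoter peak at 283. That promoter peak lay 22877 bp from the gene's first 5' end, before an internal 5' end at 23679 bp. daf-5, a Sno/Ski factor that acts with Smads in the dauer TGF-beta pathway, had 7 peaks in 1 intron of 14446 bp. Relative signal of the highest daf-5 peak was 2.18 in replicate 1 and 2.196 in replicate 2, and all but 1 of its intronic peaks had at least 0.79 in both. The exception had 0.19 in replicate 1 and 0.87 in replicate 2. Its summit, 11688 bp from the first 5' end, lay inside the region of the daf-5 member at 11887 bp. flcn-1, the folliculin gene, also had 7 peaks, spread over 5 introns and no higher than 127. spsb-1, a SPRY and SOCS box gene, had 7 with a highest signal of 116.

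nhr-19 held 6 peaks in 5.24 kb of eligible sequence, the highest at 443 and the other 5 between 42.8 and 80.7. vhp-1 also held 6, and its highest, at 308, was close to its promoter peak of 319. lit-1, a Nemo-like kinase of Wnt signalling, held 6 of 41.7 to 89.9. C41D11.3, lron-13 and pkg-2 held 6 each, with highest signals of 176, 119.3 and 113. sea-2, hlh-30, ccch-1, mnk-1 and F57A8.1 held 5 each. In sea-2 all 5 lay in 1 intron of 10355 bp, the highest at 461 and the other 4 between 54.1 and 122.8, and no peak stood in the gene's promoter window. The hosts thus ranged from 1 dominant peak, as in sea-2 and nhr-19, to several of like height, as in daf-5.

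**Figure D2:**
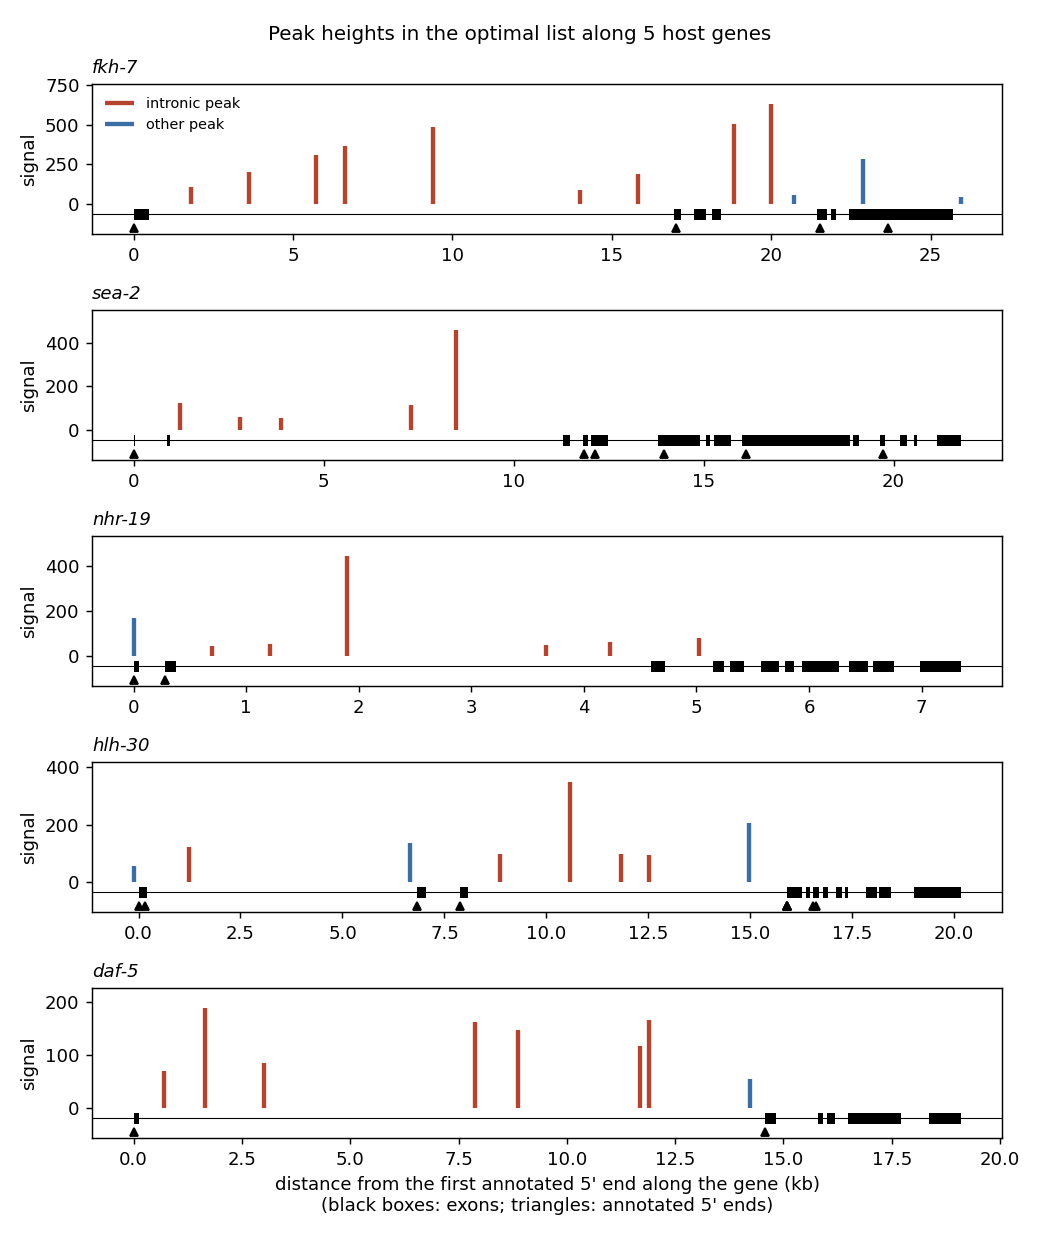
Peak signal in the optimal list (vertical bars) along fkh-7, sea-2, nhr-19, hlh-30 and daf-5, by distance in kb from the first annotated 5' end, with exons as boxes and annotated 5' ends as triangles; red bars are intronic peaks and blue bars other peaks. The highest fkh-7 bar, at 633, stands 19985 bp from the first 5' end, and sea-2 has 1 tall bar of 461 among 4 lower ones.

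Long introns and first introns held more peaks per base. The autosomes had 22.2 Mb of eligible intronic sequence, or 26.9% of their length, with 40.6 members per Mb. A first intron here is the first of any annotated transcript, so it may lie downstream of an internal 5' end. The highest hlh-30 member is counted in one, at 10583 bp from the gene's first 5' end. First introns held 47.3% of members (Wilson 44.0 to 50.5) and 27.7% of eligible bases, which is 69.1 peaks per Mb, against 29.6 per Mb in other introns. In the 7847 highest regions of each replicate alone, first introns held 46.6% of intronic regions in replicate 1 and 46.9% in replicate 2. Introns of up to 500 bp held 19.4 peaks per Mb, those of 2001 to 4000 bp 63.7 and those over 8000 bp 122. First introns had the higher density in each of the 6 length classes, from 29.7 against 17.4 per Mb in the shortest to 135 against 104 in the longest. Median signal was 69.6 in the shortest introns and 90.9 in the longest. When each intron was cut into 3 equal parts, 313 members lay in the part nearest the host's 5' side, 357 in the middle part and 228 in the last part, where 34.5%, 34.2% and 31.3% of eligible bases lay.

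**Figure D3:**
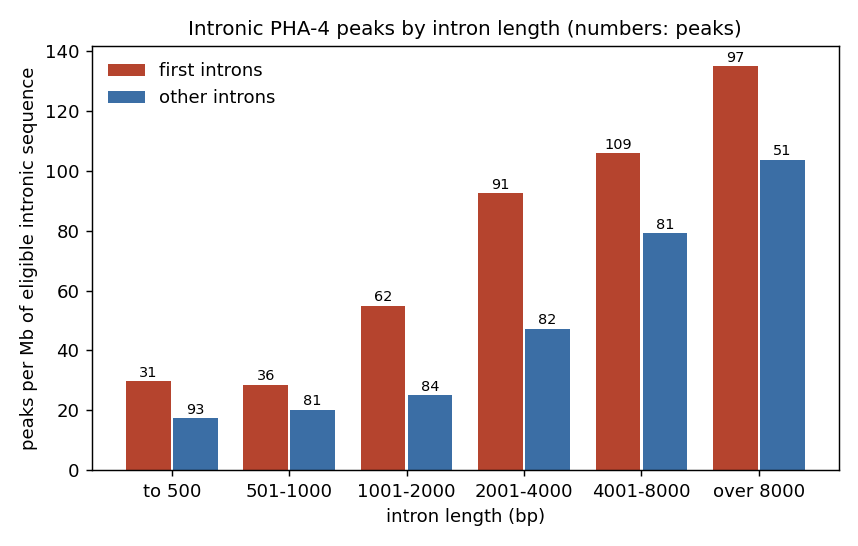
Intronic peaks per Mb of eligible intronic sequence (y axis) by intron length in bp (x axis) for first and other introns, with the number of peaks above each bar. Bars are tallest over 8000 bp, at 135 per Mb in first introns and 104 per Mb in other introns.

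The density did not fall away with distance from the start of the gene. Members lay a median of 3448 bp, and at most 49598 bp, from the first annotated 5' end of their host. There were 31.5 peaks per Mb at 201 to 500 bp, 37.4 at 1001 to 2000 bp, 44.1 at 4001 to 8000 bp and 52.9 beyond 16000 bp. Intron length also changes along this scale, and its part in the trend was not tested. A later annotated 5' end of the same gene lay downstream of 54.1% of members (Wilson 50.8 to 57.3), and downstream of 23.5% of eligible bases. The stretch from 1001 to 2000 bp before such an internal 5' end, just outside the promoter window, held 19.3% of members (16.9 to 22.0) and 6.54% of eligible bases. Genes with at least 2 annotated 5' ends held 72.6% of members and 49.4% of eligible bases. By chromosome, density was 52.3 per Mb on II, 44.7 on III, 38.1 on IV, 37.7 on I and 32.7 on V, with 66.4 for the 297 intronic peaks of X.

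Genes with an intronic peak often had a promoter peak as well. A promoter peak here is one in the window of any annotated 5' end of the gene, internal ones included. A peak stood in the promoter window of 315 of the 565 hosts, or 55.8% (Wilson 51.6 to 59.8), against 21.9% of the other eligible genes (21.3 to 22.6) and a background of 23.2% of all eligible genes. The difference was present at each amount of eligible sequence. With 501 to 2000 bp it was 56.0% of hosts against 20.2% of other genes, and with over 5000 bp 55.9% against 31.2%. A gene with more 5' ends has more windows. Genes with at least 2 were 28.0% of eligible genes and held 72.6% of members, and their part in the difference was not tested. Hosts with a promoter peak held 62.7% of members. This was 41.1% when only peaks at or above the median signal of the list were used for introns and promoters alike. The higher cut also leaves fewer promoter peaks. The share of eligible bases in genes with a promoter peak was not counted at either cut. In 159 of the 315, or 50.5%, the highest intronic peak exceeded the highest promoter peak, and the median ratio of the intronic to the promoter peak was 1.02. erm-1, the ezrin-radixin-moesin gene of the gut lumen, is an example, with an intronic signal of 249 and a promoter signal of 61.0. pha-4 is the reverse case, with 107 for its highest intronic member and 838 in its promoter window. Members in hosts with a promoter peak had a median relative signal of 0.95 in replicate 1 and 0.89 in replicate 2, against 0.83 in both replicates for members in the other hosts.

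Gene lists differed widely in intronic peaks, also beside introns of the same length. For each list the number of members was set beside the number it would hold if its introns had the density of all genes in the same class of length and position (first or other). This second number is a rate and not a test, and the lists were chosen with earlier results of these data known.

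The 11 eligible forkhead genes held 16 members, against 4.11 at the rates of all genes. They lay in fkh-7, daf-16, pha-4 and fkh-6, and without fkh-7 there were 7, against 2.02. Of those, 3 lay in daf-16, which is also in the insulin list below, and 1 in fkh-6. The other 3 lay in pha-4, where the strain carries extra sequence. Forkhead regions numbered 15 among the intronic regions of replicate 1 and 16 in those of replicate 2. The 27 genes of insulin, TOR and AMPK signalling held 25, against 10.9. Besides daf-16, hlh-30 and flcn-1 these were let-363, the TOR kinase, with a signal of 172, aakg-1, a gamma subunit of AMP-activated kinase, with 4 peaks of up to 169, and skn-1, the Nrf factor of stress responses, with 151 and 119.4. daf-2, the insulin receptor, held 3 low peaks of up to 63.4 in 30.7 kb. The 50 genes of Wnt, Notch and TGF-beta signalling held 21, against 8.93. daf-14, a Smad, had 1 peak at 222, lag-1, the DNA-binding factor of Notch signalling, had 4 of up to 99.2, and sel-8, a Notch coactivator, had 1 at 68.6. Without the host with most members, the numbers were 18 against 10.3 for insulin, TOR and AMPK signalling and 14 against 7.08 for Wnt, Notch and TGF-beta signalling.

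Nuclear hormone receptor genes, 243 in number, held 17 members against 9.11. Beside nhr-19 these included nhr-34, at 298, and nhr-46, with 4 peaks of up to 212. Without nhr-19 the numbers were 11 and 8.65. The 22 intestine genes held 6, against 1.77. The intestinal hosts beside erm-1 were eps-8, an actin regulator of microvilli, at 185, pgp-1, a P-glycoprotein, at 126, itr-1, the IP3 receptor, at 115, and ifb-2, an intermediate filament gene, at 70.6. Body wall muscle genes held 13, against 9.27, with unc-52, the perlecan gene, at 120 and pat-12 at 112. Hosts among axon guidance and adhesion genes included hmr-1, the classical cadherin, with 5 peaks, and vab-1, an Eph receptor, with a peak at 138. Chromatin and transcription genes held 8, against 4.23, and 4 against 3.91 without let-526, a SWI/SNF subunit. Helix-loop-helix genes held 6, against 3.16, and 5 of the 6 were those of hlh-30. Matrix genes held 4 against 3.64, RNA-binding genes 5 against 3.99, lipid genes 2 against 3.02 and collagens 3 against 1.33. Ribosomal protein genes, with 3.83 kb of eligible sequence in all, held 0.

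Among the genes of the 2 pharynx lists, pha-4 was the only host. The 9 pharynx regulators held 3 members, against 0.946 at the rates of all genes. All 3 were the pha-4 peaks given above, and tbx-2, a T-box gene of pharyngeal muscle, had none. The 10 pharyngeal muscle genes held 0 members in 29.3 kb, against 1.22 at the rates of all genes, and replicate 1 alone gave 2 there and replicate 2 alone 0. The promoter window of 4 of these 10 genes held a peak. The homeobox ceh genes held 0, against 2.62, and Hox genes and their cofactors 0, against 1.03, so lin-39, mab-5, egl-5, ceh-13 and unc-62 had none. With such small numbers at the rates of all genes, a count of 0 shows little.

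Lists of synapse, channel and receptor genes held few peaks for their intron length. The 4 lists, put together after their low values were seen, covered synapse and neuropeptide release, receptor channels for acetylcholine, glutamate and GABA, potassium channels and G protein-coupled neuropeptide and amine receptors. Their 250 genes held 1013 kb of eligible sequence and 9 members, against 52.9 at the rates of all genes. In the highest regions of each replicate there were 12 in replicate 1 and 10 in replicate 2. The hosts were kcnl-4, a calcium-activated potassium channel, with 2 peaks of up to 135, and npr-41, ric-4, glr-2, lat-2, glr-4, gar-3 and egl-8. ric-4, the SNAP-25 gene, had a signal of 93.7, and egl-8, a phospholipase C beta, had 47.9. unc-13, a synaptic vesicle priming gene, had none in 22.8 kb. The axon guidance and adhesion list, with 8.27 kb of eligible sequence per gene, is not among the 4 and held 23 members, against 23.9. Promoter peaks were also scarce in these genes, at 17 of 250, or 6.80%, against 23.2% of all eligible genes. Chemoreceptor genes held 7 in 870 kb, against 25.01, and 1.19% of them had a promoter peak. Larvae were used whole, so few cells of a type and weak binding in each cell cannot be told apart.

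**Figure D4:**
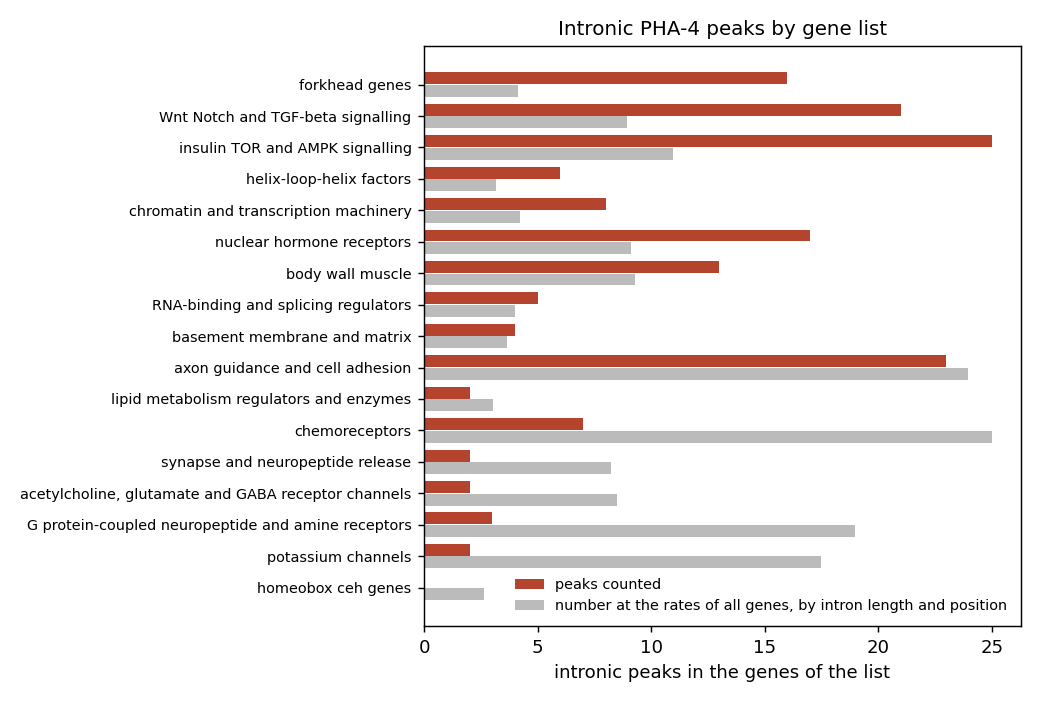
Number of intronic peaks (x axis) in each gene list, as counted and as given by the rates of all genes in introns of the same length class and position; lists with fewer than 2 by those rates are not drawn. Forkhead genes, with 16 counted against 4.11, stand at the top, and potassium channels, with 2 against 17.5, near the bottom.

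Other single genes gave few members. unc-89, a giant muscle protein gene, had 2 in 24.1 kb with a highest signal of 63.5. lin-28, a heterochronic RNA-binding gene, and ama-1, the large subunit of RNA polymerase II, had promoter peaks at 128 and 120 and no intronic one. elt-1, nhr-6, unc-54 and myo-3 had no intronic peak in 1487, 1455, 1172 and 1072 bp of eligible sequence.

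Some intronic peaks lay beside small RNA genes. A tRNA gene lay within 200 bp of 18 members, or 2.00%, and of 0.146% of eligible bases, and the median distance was 22 bp. A snoRNA gene, a guide of RNA modification, lay within 200 bp of 19, or 2.11%, and of 0.136% of eligible bases. Their median signals were 95.6 and 113, against 75.0 for all members. The peak beside a tRNA gene in F52C9.5 had a relative signal of 2.28 in replicate 1 and 2.07 in replicate 2. The peak beside a snoRNA gene in rol-3 had 1.70 in replicate 1 and 2.05 in replicate 2. For piRNA genes the shares were 2.33% of members and 3.45% of bases. Genes annotated only as ncRNA lay within 200 bp of 74 members, or 8.21%, and of 2.04% of eligible bases. None of these shares was counted over all autosomal peaks, so they may not be particular to intronic ones.

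Over all members, FoxA words and GA repeats were each found in about the same share. Within 50 bp of the summit, a FoxA core stood in 27.0% of members (Wilson 24.2 to 30.0), against 25.02% of promoter peaks, 24.9% of peaks outside genes and a background of 25.1% of all autosomal peaks. It stood in 6.44% and 8.44% of windows 500 bp upstream and downstream of the same summits, and in 5.70% of 181025 eligible intronic windows of the same length that touched no peak. Its share among members was thus near the share among all peaks, and above that of introns without peaks. The form TGTTTAC stood in 8.44% of members, 7.65% of all autosomal peaks and 0.868% of intronic windows. For the form TATTTGC these shares were 5.66%, 4.36% and 1.66%. A GA repeat stood in 26.0% of members (23.2 to 28.9), against 22.1% of promoter peaks, 30.7% of peaks outside genes, a background of 24.8% of all autosomal peaks and 3.70% of intronic windows. The intronic windows were richer in A and T, at 67.7% on average against 59.5% for members, and the part of base composition in these shares was not tested. A T tract, TTTTTTT on either strand, ran the other way, in 15.3% of members, 13.9% of all autosomal peaks and 34.3% of intronic windows.

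Most members with a FoxA core or a GA repeat did not hold both. Words of these shares, if placed independently, would also mostly fall in different peaks. The joint share over all autosomal peaks was not counted. Both words stood in 43 members, a FoxA core alone in 200, a GA repeat alone in 191 and neither in 467. Median relative signal was 1.05, 0.91, 1.15 and 0.82 for these sets in replicate 1 and 1.13, 0.93, 1.07 and 0.79 in replicate 2. Members with neither word were the lowest in both replicates.

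**Figure D5:**
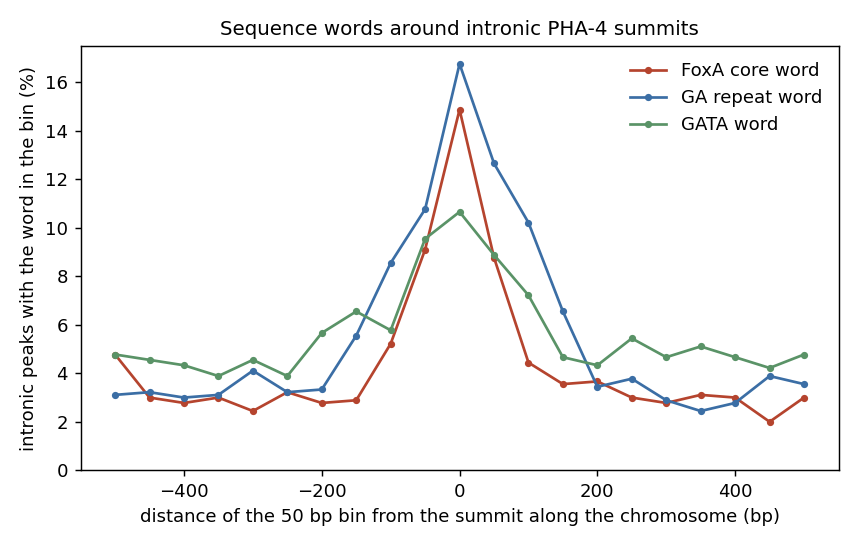
Share of intronic peaks (y axis, percent) with a FoxA core, a GA repeat or a GATA word in bins of 50 bp, by distance in bp from the summit along the chromosome (x axis). The curves peak in the central bin, at 14.9% for the FoxA core, 16.8% for the GA repeat and 10.7% for the GATA word.

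Some words changed with peak height. When members were split into 4 groups of like size by signal, the GA repeat stood in 19.5% of the lowest group, 20.9% and 24.4% of the middle groups and 39.1% of the highest group (33.0 to 45.6). From the lowest group to the highest, the FoxA core stood in 25.7% (20.4 to 31.7), 22.2%, 28.0% and 32.0% (26.3 to 38.4), with overlapping intervals. TGATAA, the word bound by GATA factors such as those of the intestine, ran the other way, with 27.0% in the lowest group (21.6 to 33.1), 20.9% and 22.2% in the middle groups and 10.7% in the highest (7.27 to 15.4), and stood in 8.01% of intronic windows. TGATAA stood in 20.2% of all members and 18.3% of all autosomal peaks. No match of one of these 3 words can overlap a match of another. Of the FoxA forms, TGTTTAC stood in 7.08% of the lowest group and 13.8% of the highest, and TATTTGC in 6.19% and 4%. The word GCGTCTC, chosen after the printed sequences were seen, stands in the windows of Y111B2A.12, epg-9 and the highest fkh-7 peak. Because those peaks are among the highest, its share of the highest group is partly set by that choice. The word was found in 3.097% of the lowest group and 12.9% of the highest, or 12.04% of the highest without the 9 printed peaks. It stood in 6.99% of all members, 9.81% of promoter peaks and 0.758% of intronic windows, and it can overlap a GA repeat. The AP-1 word TGACTCA stood in 3.55% of members, 2.67% of all autosomal peaks and 0.679% of intronic windows. For the E-box CACGTG these shares were 4.88%, 4.44% and 1.32%. The mean A and T content was 61.8% in the lowest group and 56.8% in the highest.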

How the data were processed

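TF ChIP-seq of PHA-4 was deposited as peak lists for 2 replicates of 1 group. Manifests deposited beside the lists say that 30000 regions per replicate came from its ce11 alignment and a shared control file. The optimal list was then made from the pooled and single lists by the irreproducible discovery rate. The aligner, peak caller and thresholds are not given in sources used here. The deposited signal is the authors' peak height, of unstated scale. The deposited −log10 q-value has a ceiling of 4.15 and was not used to rank peaks. Depth per sample is unknown.

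Summits were placed on genes with Ensembl release 115 (WBcel235), and 640 gene symbols came from RefSeq. Replicate values were taken from the region whose summit lay within 200 bp. Words were searched on both strands within 50 bp of the summit. Wilson intervals are at 95%. With 1 group, no test between groups was possible. Named genes were the hosts of the 20 highest members, up to 15 hosts with at least 4 members, up to 5 hosts per list by signal, and 20 single genes. Outside this rule, genes beside tRNA and snoRNA genes were picked after their values were seen. Members and lists were chosen with earlier results of these data known. Alternatives were the peaks at or above the median signal, other promoter windows, RefSeq gene models, each replicate alone, peak midpoints and other word windows. Scripts were tested on simulated data, and used Python 3.11.15, NumPy 2.4.6, pandas 2.3.3, SciPy 1.17.1 and Matplotlib 3.10.9.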

Additional observations from a re-analysis of the deposited data

How the results depend on the processing

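Each of 8 summary values was recomputed under 7 alternatives, and the word shares under 2 more. With only peaks at or above the median signal the number of members was 387, their share of autosomal peaks 12.1%, the ratio of intronic to promoter median signal 0.897, the share of members whose host has a promoter peak 41.1%, the FoxA core share 31.0%, the GA repeat share 33.6% and the share in hosts with at least 2 members 42.4%. Fewer peaks leave fewer genes with a second peak or a promoter peak, by construction. With a window of 500 bp upstream to 100 bp downstream, the share of autosomal peaks was 17.9%, the signal ratio 0.760 and the promoter-peak share 49.05%. With 2000 bp upstream to 200 bp downstream these were 10.4%, 0.837 and 73.4%. RefSeq gene models gave 43.4% in first introns. FoxA and GA shares were 15.2% and 16.9% within 25 bp and 37.3% and 39.2% within 100 bp. For either replicate alone the 7847 highest regions were used, so a like number of members was partly set by that list length. The number of members was then 875 to 890, their share 14.2% to 14.4% and the signal ratio 0.779 to 0.837. The first-intron share was 46.6% to 46.9% and the promoter-peak share 58.1% to 62.8%. The FoxA share was 23.9% to 25.2% and the GA share 27.1% to 28.5%. The share in hosts with at least 2 members was 52.6% to 55.7%. The signal ratio was below 1 in each of these. The causes of the other shifts were not tested. No paired analysis was possible because there was 1 group. The unknown depth limits every share, since the number of peaks called depends on it.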
